A study of Mus musculus with 6 samples.

Results

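Translation initiation factors (eIFs) and elongation factors (eEFs) are the proteins that place a ribosome on an mRNA and then move it along codon by codon. The 64 genes described here are the rows of the deposited expression table whose mouse symbol begins with Eif1 to Eif6, Eef1 or Eef2, leaving out the Eif2ak kinases, and they were taken from 24970 rows in all. The rule reads gene names and no measured values. Their transcripts were measured by RNA sequencing in primary vascular smooth muscle cells, which form the muscle layer of arteries, isolated with collagenase from 12 male C57BL/6 mice aged 6 weeks and grown in medium with serum. In the control group (siScrambled, 3 libraries) the cells received a scrambled siRNA, a short RNA duplex with no intended target, and in the other group (siPfkfb3, 3 libraries) an siRNA against Pfkfb3, whose enzyme makes an activator of the glycolytic enzyme phosphofructokinase. Both siRNAs were used at 20 nM with a lipid reagent for 48 h. The labels do not say which mice or cultures each library came from, so p-values reflect spread among the 6 libraries alone, which may be technical. For replicates 2 and 3 of siPfkfb3 the genotype field reads PFKFB4 and PFKFB5 while the titles read PFKFB3, and the titles were followed.

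Initiation begins when eIF1, eIF1A, eIF3, eIF5 and eIF2 carrying the initiator tRNA bind the small ribosomal subunit. The cap-binding complex eIF4F, made of the cap-binding protein eIF4E, the scaffold eIF4G and the helicase eIF4A, then brings the subunit to the mRNA, and eIF4E-binding proteins block that step until the kinase mTORC1 phosphorylates them. After each round eIF2B recharges eIF2 with GTP, a step that stress kinases shut off by phosphorylating eIF2. In elongation eEF1A delivers aminoacyl-tRNAs and eEF2 moves the ribosome forward. Growing cells, cultured smooth muscle among them, spend much of their energy on this machinery.

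Values are in FPKM, fragments per kilobase of gene normalised to the mapped fragments of the library, as the authors deposited them. FPKM is per length, so levels of different genes can be compared roughly. Where parts of a transcript also occur in other genes, its level is uncertain. The number of reads is unknown, and a rough estimate from the commonest low value puts the libraries' depths within a factor of 1.24. Pfkfb3 checks the labels: it stood at 4.03, 4.02 and 3.86 FPKM in siScrambled and at 1.92, 1.65 and 1.77 FPKM in siPfkfb3, which is 44.9% of the control mean with no overlap. The log2 change was −0.84 ± 0.07 (SE; limma, adjusted p = 2.66e-05), and by exact two-sided permutation p was 0.1, the lowest value possible with 3 against 3 libraries. Summed smooth muscle markers stood at 2879 to 2956 FPKM in siScrambled and 3292 to 3358 FPKM in siPfkfb3, and summed fibroblast markers, which cultured smooth muscle also expresses, at 828 to 854 and 739 to 770 FPKM. Of the 8 smooth muscle markers 3 rose (Acta2, Cald1 and Cnn1) and 1 fell (Myl9), with a median log2 change of −0.05, and Acta2 and Cald1 make up the difference of the sum. Of the 6 fibroblast markers 1 rose and 3 fell, and no marker of these lists was at 0. The part of these shifts in the results below was not tested. Summed endothelial markers were low, at 1.01 to 1.17 FPKM in siScrambled and 0.550 to 0.841 FPKM in siPfkfb3, most of it Tek, and epithelial markers reached 0.133 FPKM at most. Macrophage and leukocyte markers summed to 14.8 to 15.4 FPKM in siScrambled and 16.0 to 16.6 FPKM in siPfkfb3, most of it Lyz2, and Ptprc, which marks all leukocytes, reached a mean of 0.00595 FPKM at most.

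As a class the translation factors were abundant and moved little. Of the 64 genes, 60 had a mean of at least 1 FPKM and were tested. On the log2(FPKM + 1) scale 8 of the 60 rose and 14 fell in siPfkfb3 at an adjusted p under 0.05 (limma, Benjamini-Hochberg over 11240 genes). That is 36.7% of the tested members, beside 36.3% of all tested genes, so the share called is close to the background. By direction, 15.8% of all tested genes were called higher and 20.5% lower. The median absolute log2 change was 0.11 over the members and 0.14 over all genes. For 32 of the 60 the groups were fully separate, beside 49.5% of all tested genes. Only Eif4e3 moved by more than 0.3 on the log2 scale among the tested members. In bulk RNA, fewer cells expressing a gene and less RNA per cell cannot be told apart. Quantile normalization gave 8 rises and 8 falls, and limma without trend and robust fit 7 and 7. The count of falls was 6 without siScrambled replicate 1, 9 without siScrambled replicate 3 and 8 without siPfkfb3 replicate 2. The 4 genes that did not reach the filter were Eef1a2, Eef1akmt3, Eif4ebp3 and Eif4e1b, all with means under 1 FPKM.

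**Figure D1:**
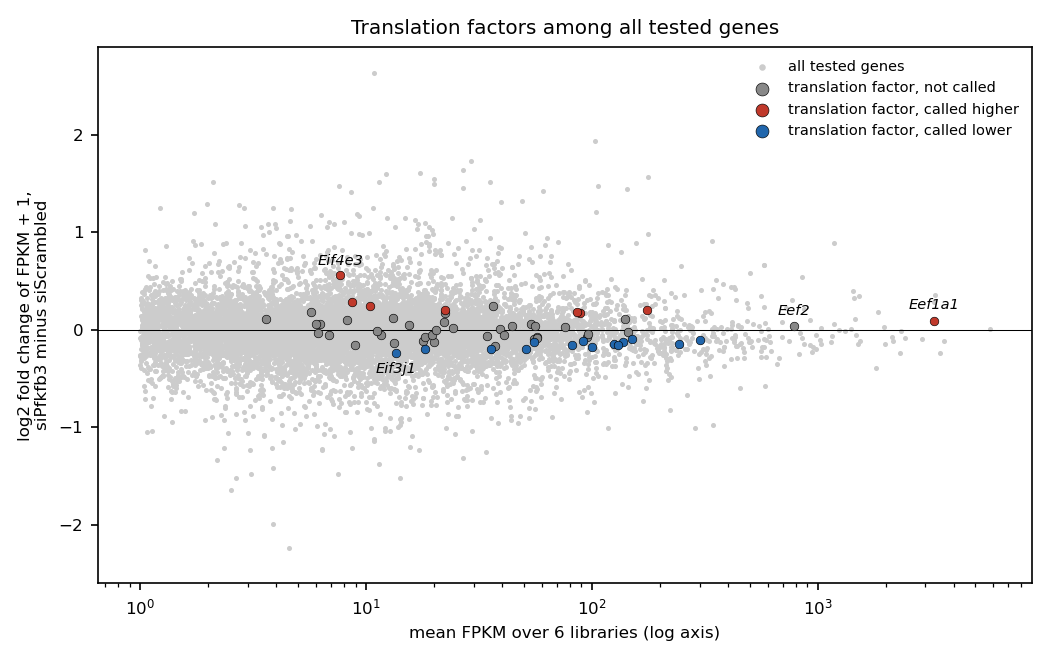
Each point is 1 tested gene, with its mean level over the 6 libraries in FPKM on a log axis and its log2 fold change, siPfkfb3 minus siScrambled, on the vertical axis. Grey dots are all 11240 tested genes and outlined points the 60 translation factors, most of which lie close to 0, with Eef1a1 at the abundant end.

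**Figure D2:**
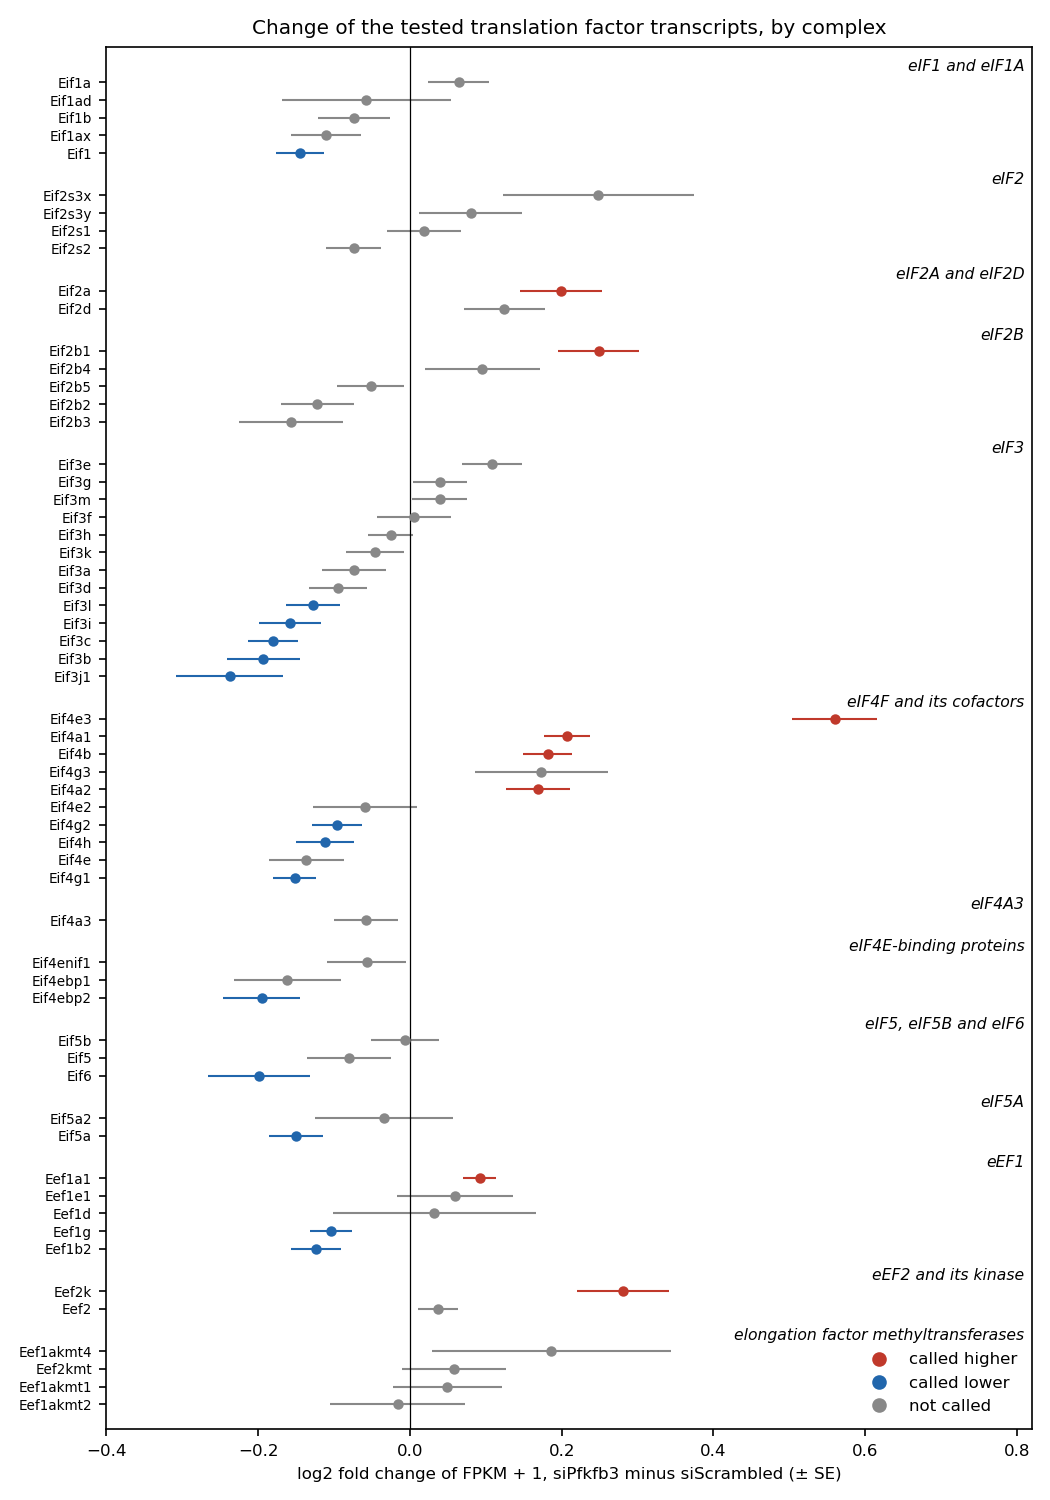
Log2 fold change of FPKM + 1 (siPfkfb3 minus siScrambled) with its standard error for the tested translation factors, grouped by complex and coloured by the limma call at an adjusted p under 0.05. Eif3j2 (0.11 ± 0.89) is left out for its wide error, and calls in both directions are seen within eIF4F and eEF1.

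Genes of eIF4F and its cofactors were called in both directions. Of 10 tested genes 4 rose (Eif4e3, Eif4a1, Eif4a2 and Eif4b) and 3 fell (Eif4g1, Eif4g2 and Eif4h), with Eif4e, Eif4e2 and Eif4g3 not called. That is 70.0% of this small group, beside 36.3% of all tested genes, and the falls of Eif4g2 and Eif4h each ended in at least 10 of 15 alternative settings. Helicase transcripts were thus higher and scaffold transcripts Eif4g1 and Eif4g2 lower in the same libraries. The sum over the 11 genes of the group was 790.5 ± 7.48 FPKM in siScrambled and 809.5 ± 1.45 FPKM in siPfkfb3 (mean ± SD, n = 3; exact permutation p = 0.1). The log2 ratio of these sums depended on scaling, at 0.03 as deposited, 0.06 under TPM and 0.05 under TMM scaling.

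Eif4e3 (chromosome 6, 99625135 to 99666771, minus strand; GRCm38) encodes a member of the eIF4E family that binds the cap. Its level was 5.94, 6.16 and 5.95 FPKM in siScrambled and 9.69, 9.39 and 8.96 FPKM in siPfkfb3. All 3 siPfkfb3 libraries lay above all 3 controls, at 155% of the control mean (log2 change 0.56 ± 0.06 SE, adjusted p = 5.94e-05). Its exons overlap those of the gene Gm20696, which had a mean of 0.0984 FPKM in the same table. The main cap-binding subunit Eif4e stood at 13.8, 13.8 and 14.3 FPKM in siScrambled and at 12.4, 13.2 and 12.3 FPKM in siPfkfb3. Those groups did not overlap either, but the change of −0.14 ± 0.05 did not pass (adjusted p = 0.0563). Eif4e2, a relative of eIF4E that acts in translational repression, was higher than Eif4e in both groups, at 35.1 ± 3.58 and 33.6 ± 1.28 FPKM (adjusted p = 0.540), and Eif4e1b, a relative known from oocytes, was listed at 0 in 5 of the 6 libraries.

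The helicase is encoded by Eif4a1 and Eif4a2. Eif4a1 (chromosome 11, 69666936 to 69672423, minus strand) stood at 166, 163 and 158 FPKM in siScrambled and at 186, 190 and 187 FPKM in siPfkfb3. All 3 siPfkfb3 values were above the controls (log2 change 0.21 ± 0.03 SE, adjusted p = 0.000633). Eif4a2 stood at 84.9, 81.2 and 84.7 FPKM and at 97.1, 88.8 and 96.7 FPKM in the same order, again without overlap (0.17 ± 0.04, adjusted p = 0.0111). The ratio of Eif4a1 to Eif4a2 was 1.94 ± 0.0716 in siScrambled and 2.00 ± 0.128 in siPfkfb3 (exact permutation p = 0.7, adjusted over 7 ratios p = 0.7). Eif4b (chromosome 15, 102073773 to 102097173, plus strand), which stimulates the helicase, rose with them. It stood at 80.7, 82.3 and 78.9 FPKM in siScrambled and at 90.8, 93.0 and 90.9 FPKM in siPfkfb3 (log2 change 0.18 ± 0.03 SE, adjusted p = 0.00186), and no siPfkfb3 library reached down to a control. Eif4h, the other stimulator of the helicase, moved in the opposite direction, from 94.5 ± 3.97 to 87.4 ± 1.67 FPKM (−0.11 ± 0.04, adjusted p = 0.0451), a call that ended in 10 of 15 alternative settings. Of the 75-base stretches of the Eif4a1 transcript, 62.9% also occur in transcripts of other annotated genes, chiefly the processed pseudogene Eif4a-ps4, so its level is uncertain. For Eif4a2 this share is 6.19%, and for Eif4b 0.37%.

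Eif4g1 (chromosome 16, 20668313 to 20692884, plus strand), the main scaffold, stood at 136, 136 and 139 FPKM in siScrambled and at 124, 123 and 123 FPKM in siPfkfb3. The 3 siPfkfb3 libraries were below the controls and close to each other (log2 change −0.15 ± 0.03 SE, adjusted p = 0.00253). Eif4g2, a scaffold that lacks the eIF4E-binding site, had 153, 162 and 154 FPKM in siScrambled and 146, 146 and 146 FPKM in siPfkfb3. The groups did not overlap, but the call was close to the threshold (−0.10 ± 0.03, adjusted p = 0.0476) and ended in 12 of 15 alternative settings. The ratio of Eif4g2 to Eif4g1 was 1.14 ± 0.0452 and 1.18 ± 0.00495 (exact permutation p = 0.4, adjusted p = 0.7). Eif4g3, the third scaffold, was lower than both and overlapped between groups, with 20.2 FPKM in siPfkfb3 replicate 1 and 26.3 and 24.7 FPKM in replicates 2 and 3, beside 20.2 to 21.7 FPKM in siScrambled (adjusted p = 0.162). Without siPfkfb3 replicate 1 it was called higher (adjusted p = 0.00492).

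**Figure D3:**
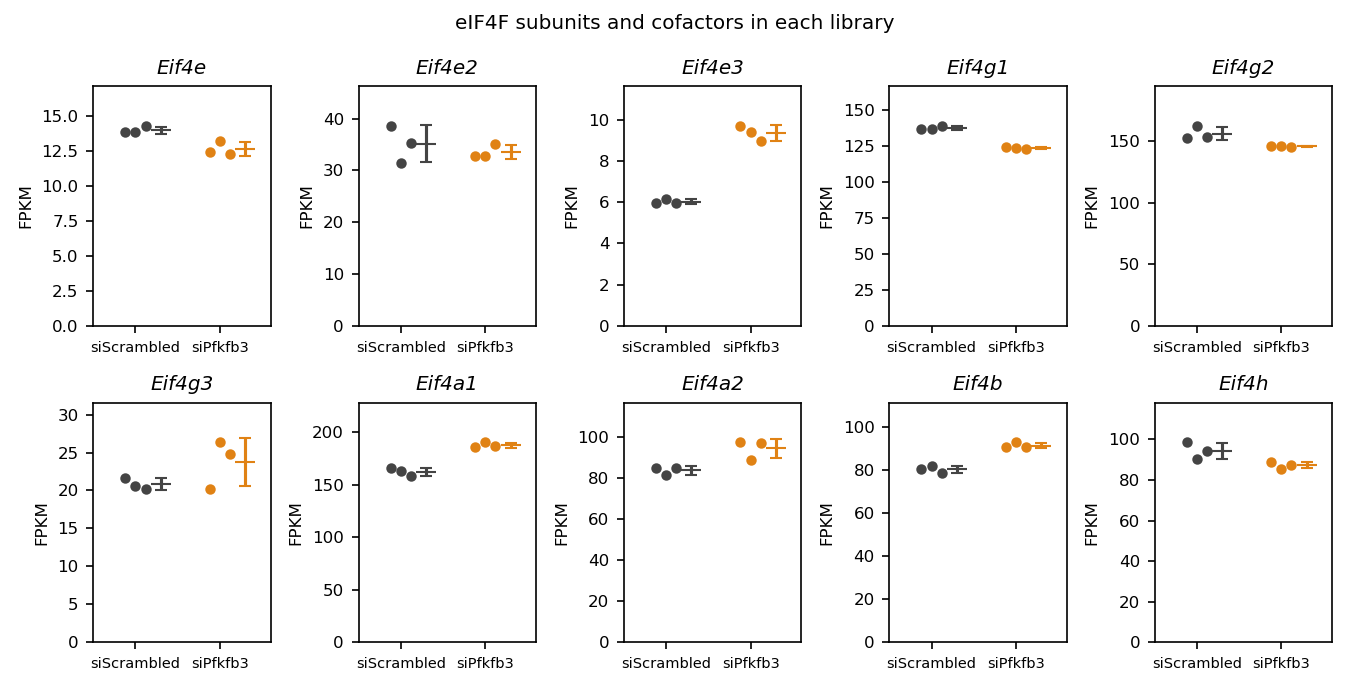
FPKM of 10 eIF4F subunits and cofactors, with 1 point for each library and the mean with its SD (n = 3) beside it, and axes that start at 0. Eif4e3, Eif4a1, Eif4a2 and Eif4b lie higher in siPfkfb3 (orange) than in siScrambled (grey), and Eif4g1 lies lower.

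Of the 3 tested genes of the eIF4E-binding group 1 fell and none rose, 33.3% called beside 36.3% of all tested genes. Eif4ebp2 stood at 18.7, 20.5 and 19.3 FPKM in siScrambled and at 16.7, 17.5 and 16.5 FPKM in siPfkfb3, without overlap (log2 change −0.20 ± 0.05 SE, adjusted p = 0.0138; adjusted p = 0.0505 without siPfkfb3 replicate 3). Eif4ebp1, the most abundant of them, had 41.3, 36.6 and 39.8 FPKM and then 38.7, 34.3 and 32.1 FPKM, groups that overlap (−0.16 ± 0.07, adjusted p = 0.108). With replicate number as a block it was called lower (adjusted p = 0.0171). Eif4enif1, which carries eIF4E into the nucleus, was at 11.9 ± 0.343 and 11.4 ± 0.463 FPKM (adjusted p = 0.432). Relative to their target, the 3 binding proteins Eif4ebp1, Eif4ebp2 and Eif4ebp3 summed to 4.21 ± 0.116 times the level of Eif4e in siScrambled and to 4.12 ± 0.309 times in siPfkfb3 (exact permutation p = 0.6, adjusted p = 0.7).

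Start-site sequences are shown for these genes because many mRNAs of the translation machinery carry a 5′ terminal oligopyrimidine (TOP) tract, a C followed by pyrimidines that places them under mTORC1 through LARP1, and because CACGTG is the E-box bound by MYC and related factors. RefSeq promoters (GRCm38.p6) were matched for 48 of the 64 members. A C within 5 bases of the annotated start followed by at least 5 pyrimidines was found in 8 of the 48 (16.7%; exact 95% interval 7.48% to 30.2%), beside 12.8% of 8635 tested genes and 41.3% of 63 cytosolic ribosomal protein genes. In each line the annotated start is base 11 of 30, read 5′ to 3′ on the strand of the gene, and the capitals mark the C and its tract.
Eef1a1 (chr9:78481705-78481734, minus strand): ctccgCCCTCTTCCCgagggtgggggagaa
Eif3f (chr7:108934405-108934434, plus strand): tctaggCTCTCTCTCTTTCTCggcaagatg
Eif3l (chr15:79075213-79075242, plus strand): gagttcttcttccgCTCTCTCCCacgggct
Eif2s3x (chrX:94212632-94212661, minus strand): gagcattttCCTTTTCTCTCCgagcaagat
Eif2s3y (chrY:1010585-1010614, plus strand): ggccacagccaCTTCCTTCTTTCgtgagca
Eif4g1 (chr16:20672717-20672746, plus strand): gcgcagctccgCCCTCTgcgccggtcacgt
Of these, Eef1a1 rose, Eif3l and Eif4g1 fell, and Eif3f, Eif2s3x and Eif2s3y were not called. Eif2b2 and Eif2b5, the other carriers, were not called. Among all tested genes 36.3% were called. With a C at the annotated start itself and at least 4 pyrimidines after it, the share of members with a tract was 4.17% (2 of 48). By that rule it was 2.93% of tested genes and 20.6% of the ribosomal protein genes. Only annotated starts were read, so a tract at another start or more than 5 bases away was not counted. These shares may thus be too low, and a gene without a match may still carry a TOP tract. Whether transcripts begin at the annotated starts was not tested. A marked tract, that of Eef1a1 included, may therefore lie outside the mRNA, and the shares may also be too high.

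The E-box CACGTG, which reads the same on both strands, was found in the 300-base promoter of 13 of the 48 members (27.1%; exact 95% interval 15.3% to 41.8%), beside 12.1% of tested genes and 9.52% of the ribosomal protein genes. A gene was counted if any of its listed promoters held the motif. The windows below hold the E-box in capitals with 12 bases on either side, on the strand of the gene. They are shown for genes of eIF4F and its cofactors, for Eif5a and for the pair Eef2 and Eef2k. A single window is given for each gene, and promoters of Eif4e, Eif4g1 and Eif5a hold further E-boxes.
Eif4a1 (chr11:69672595-69672624, minus strand): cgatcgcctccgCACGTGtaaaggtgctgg
Eif4e (chr3:138527192-138527221, plus strand): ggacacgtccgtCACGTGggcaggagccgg
Eif4g1 (chr16:20672661-20672690, plus strand): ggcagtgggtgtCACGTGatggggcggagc
Eif4h (chr5:134639488-134639517, minus strand): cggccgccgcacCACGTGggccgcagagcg
Eif5a (chr11:69921443-69921472, minus strand): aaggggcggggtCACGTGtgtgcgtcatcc
Eef2 (chr10:81176576-81176605, plus strand): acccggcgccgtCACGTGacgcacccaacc
Eef2k (chr7:120842788-120842817, plus strand): cccggggacggcCACGTGagcccgggcgtg
Of the 13 carriers Eif4a1 and Eef2k rose and Eif4g1, Eif4h and Eif5a fell. The other 8, Eif4e, Eef2, Eef1akmt4, Eif1b, Eif3a, Eif3f, Eif3k and Eif5a2, were not called. A count of 5 of 13 is close to the background of 36.3%. The motif TGATGNAAN, found in promoters of ATF4 target genes, was present on either strand in 2 of the 48 (4.17%; Eef2k and Eif2s3x) and in 2.68% of tested genes. A match describes these letters and is not evidence of binding.

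Among the factors of the preinitiation complex, eIF3, the many-subunit scaffold that binds the small ribosomal subunit, showed calls in 1 direction. Of its 14 genes 5 fell (Eif3j1, Eif3b, Eif3c, Eif3i and Eif3l) and none rose. The share called, 35.7%, is close to the 36.3% of all tested genes called in either direction. For falls alone the background was 20.5% of all tested genes. The median log2 change was −0.06, beside −0.02 over all tested genes. Summed eIF3 transcripts stood at 1005, 989 and 992 FPKM in siScrambled and at 979, 945 and 954 FPKM in siPfkfb3. These groups did not overlap, at 96.4% of the control mean (exact permutation p = 0.1, the smallest possible). The log2 ratio of the sums was −0.05 as deposited and −0.03 under TPM or TMM scaling.

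Eif3c (chromosome 7, 126546455 to 126566411, minus strand), part of the octameric core that contacts eIF1, stood at 109, 105 and 104 FPKM in siScrambled and at 95.1, 91.8 and 93.7 FPKM in siPfkfb3. The siPfkfb3 libraries were all lower (log2 change −0.18 ± 0.03 SE, adjusted p = 0.00204). Eif3b, which together with Eif3i and Eif3g forms a peripheral module, had 54.9, 54.4 and 54.7 FPKM and then 50.2, 44.2 and 48.9 FPKM (−0.19 ± 0.05, adjusted p = 0.0114). Its controls were nearly identical, and the spread lay in siPfkfb3. Eif3i had 88.9, 80.8 and 88.3 FPKM in siScrambled and 76.8, 77.1 and 76.9 FPKM in siPfkfb3, also without overlap (−0.16 ± 0.04, adjusted p = 0.0140). Eif3g, of the same module, went from 43.7 ± 0.294 to 44.9 ± 1.10 FPKM (0.04 ± 0.04, adjusted p = 0.425). Eif3l, at 58.1 ± 1.43 and 53.1 ± 0.968 FPKM, fell (−0.13 ± 0.04, adjusted p = 0.0196), while its partner Eif3k did not pass (−0.05 ± 0.04, adjusted p = 0.381). The calls of Eif3i and Eif3l ended in 3 and 6 of 15 settings.

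Eif3j1, a loosely bound subunit that helps recycle ribosomes, stood at 14.8, 15.1 and 14.4 FPKM in siScrambled and at 12.4, 11.1 and 13.8 FPKM in siPfkfb3 (log2 change −0.24 ± 0.07 SE, adjusted p = 0.0258). No siPfkfb3 library reached the lowest control, yet the call ended in 6 settings (adjusted p of 0.0541 to 0.0749), 5 of which leave out a library. Its paralog Eif3j2 was the least steady member, at 0.681, 4.11 and 5.01 FPKM in siScrambled and at 4.19, 7.10 and 0.552 FPKM in siPfkfb3. Low and high values were present in both groups (0.11 ± 0.89, adjusted p = 0.938). Of the 75-base stretches of the Eif3j2 transcript 87.4% also occur in Eif3j1, and 37.7% of those of Eif3j1 occur in Eif3j2, so the authors' counting could divide reads between them and the values of both genes are uncertain.

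Levels of eIF3 subunits were unequal although the complex holds most of them in equal number. Eif3h was highest in siScrambled, at 147 ± 3.07 FPKM, followed by Eif3e at 135 ± 4.45, Eif3c at 106 ± 2.31, Eif3k at 98.1 ± 4.36 and Eif3a, the largest subunit, at 97.7 ± 4.83 FPKM. Eif3k and Eif3a did not differ beyond their spread. Eif3l, Eif3d, Eif3m and Eif3b lay between 54.6 and 58.1 FPKM, and Eif3f, at 39.0 ± 1.82 FPKM, was the lowest apart from the Eif3j pair. Of the 75-base stretches of Eif3h 16.7% recur in other annotated genes, and 21.3% of those of Eif3m, so their places in this order are uncertain. As a share of summed eIF3, Eif3e went from 13.5% ± 0.452 to 15.1% ± 0.358 (mean ± SD, n = 3) and Eif3h from 14.7% ± 0.183 to 15.0% ± 0.235. The first is the opposite in direction to the subunits that fell. Eif3e itself had 136, 138 and 130 FPKM in siScrambled and 151, 139 and 146 FPKM in siPfkfb3, groups that were separate but close (0.11 ± 0.04, adjusted p = 0.0566). Under TPM, TMM and quantile scaling it was called higher (adjusted p of 0.0196 to 0.0357 over the settings that call it).

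**Figure D4:**
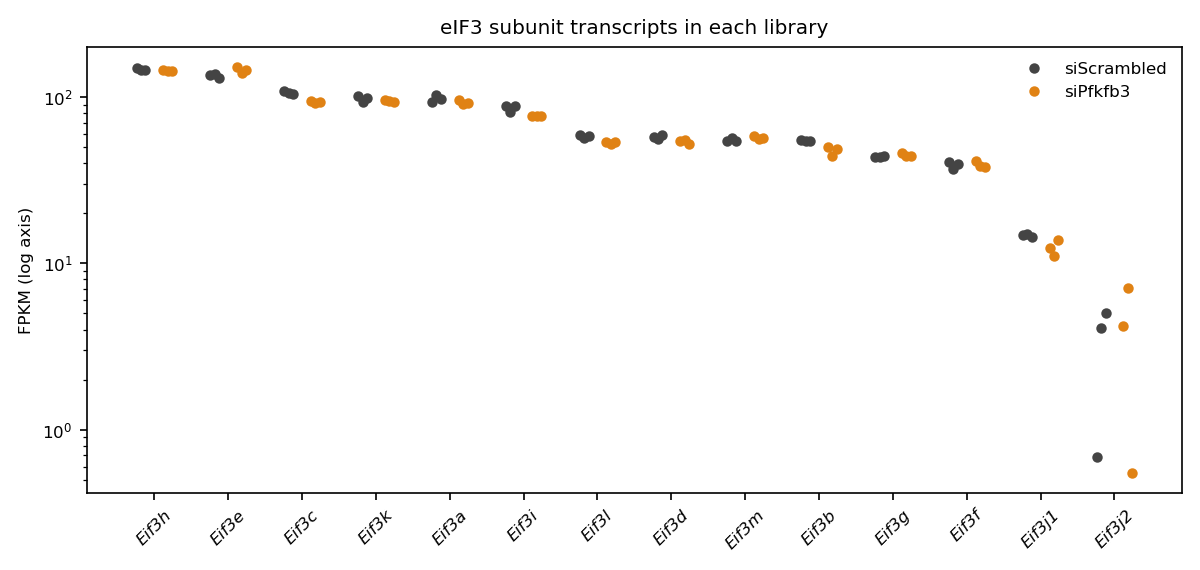
FPKM of the 14 eIF3 genes on a log axis, with 1 point for each library, ordered by the siScrambled mean. Apart from Eif3j2, means in siScrambled span from 147 FPKM for Eif3h to 14.8 FPKM for Eif3j1. Eif3j2, with a siScrambled mean of 3.27 FPKM, is spread over both groups from 0.552 to 7.10 FPKM.

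Among the remaining factors of the preinitiation complex, Eif1, which keeps the scanning ribosome selective for the start codon, fell from 135, 129 and 132 FPKM to 121, 117 and 121 FPKM. Each siPfkfb3 library was below each control (log2 change −0.15 ± 0.03 SE, adjusted p = 0.00567), and 25.6% of the 75-base stretches of its transcript recur in other annotated genes, which makes its level uncertain. Its relative Eif1b (−0.07 ± 0.05), the eIF1A genes Eif1a (0.06 ± 0.04) and Eif1ax (−0.11 ± 0.05) and the eIF1A-like Eif1ad (−0.06 ± 0.11) were not called (adjusted p of 0.0892 to 0.723).

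None of the 4 genes for eIF2, the tRNA carrier, passed, beside 36.3% of all tested genes. Its α subunit Eif2s1, the target of the stress kinases, had 24.0 ± 1.11 and 24.3 ± 0.836 FPKM (0.02 ± 0.05, adjusted p = 0.797). The β subunit Eif2s2, the most abundant, had 58.3, 60.6 and 57.9 FPKM in siScrambled and 57.3, 54.6 and 55.8 FPKM in siPfkfb3. The groups are separated by less than 1 FPKM (−0.07 ± 0.04, adjusted p = 0.143). Of the 75-base stretches of Eif2s2 22.4% recur in a processed pseudogene, so its level is uncertain. The γ subunit is encoded on the X and Y chromosomes, and both copies had transcripts in every library of these male mice. Eif2s3x stood at 35.0, 37.8 and 27.1 FPKM in siScrambled and at 36.3, 41.8 and 40.2 FPKM in siPfkfb3, with siScrambled replicate 3 apart from the rest (0.25 ± 0.13, adjusted p = 0.179). Eif2s3y had 19.1, 22.6 and 23.0 FPKM and then 22.1, 23.3 and 23.1 FPKM (0.08 ± 0.07, adjusted p = 0.392). The X copy was the higher one in each library, at 1.56 ± 0.342 times the Y copy in siScrambled and 1.73 ± 0.0757 times in siPfkfb3 (exact permutation p = 0.7, adjusted p = 0.7). Of the 75-base stretches of Eif2s3x 35.7% recur in other annotated genes, mainly the processed pseudogene Gm2223, and none of those of Eif2s3y, so the level of Eif2s3x and this ratio are uncertain.

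eIF2B, the exchange factor that reloads eIF2, has 5 subunits, and 1 of them was called, 20.0% beside 36.3% of all tested genes. Eif2b1 (chromosome 5, 124570213 to 124579131, minus strand), a regulatory subunit that senses phosphorylated eIF2, rose from 9.46, 9.79 and 8.92 FPKM to 11.1, 11.4 and 11.5 FPKM. The gap between the groups was over 1 FPKM, and the log2 change was 0.25 ± 0.05 (SE; adjusted p = 0.00542). The other regulatory subunits Eif2b2 (−0.12 ± 0.05, adjusted p = 0.0770) and Eif2b4 (0.10 ± 0.08, adjusted p = 0.360) and the catalytic ones Eif2b3 (−0.16 ± 0.07, adjusted p = 0.103) and Eif2b5 (−0.05 ± 0.04, adjusted p = 0.397) did not pass. Summed eIF2B was 67.6 ± 0.915 FPKM in siScrambled and 66.5 ± 1.17 FPKM in siPfkfb3 (exact permutation p = 0.3). Eif2a and Eif2d encode factors that can deliver initiator tRNA without eIF2. Eif2a rose from 19.4, 21.6 and 21.2 FPKM to 22.9, 23.9 and 25.0 FPKM (0.20 ± 0.05, adjusted p = 0.0167), and every siPfkfb3 library was above the controls. Its call ended without siScrambled replicate 1 (adjusted p = 0.0583) or siPfkfb3 replicate 3 (adjusted p = 0.0644). Exons of Eif2a overlap those of Serp1 on the opposite strand, and the strand setting is unknown, so its level is uncertain. Eif2d, at 12.5 ± 0.676 and 13.7 ± 0.362 FPKM, was not called (0.12 ± 0.05, adjusted p = 0.101).

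In the late steps, Eif5a and Eif6 fell. Eif5a (chromosome 11, 69916714 to 69921958, minus strand), the hypusinated factor that helps ribosomes past difficult peptide bonds, had 262, 247 and 259 FPKM in siScrambled and 238, 223 and 230 FPKM in siPfkfb3. The groups did not overlap (log2 change −0.15 ± 0.04 SE, adjusted p = 0.00892), and the call ended under quantile normalization (adjusted p = 0.146). Its paralog Eif5a2 stood at 6.69, 6.77 and 5.17 FPKM and then at 6.22, 5.81 and 5.99 FPKM (−0.03 ± 0.09, adjusted p = 0.800), 0.0243 ± 0.00388 of the level of Eif5a in siScrambled and 0.0261 ± 4.38e-05 in siPfkfb3 (exact permutation p = 0.7, adjusted p = 0.7). Eif6, which keeps the large ribosomal subunit from joining too early, had 40.7, 36.3 and 37.6 FPKM in siScrambled and 30.4, 32.9 and 36.3 FPKM in siPfkfb3. The highest siPfkfb3 value lay just under the lowest control (−0.20 ± 0.07, adjusted p = 0.0447), and the call ended in 10 of 15 settings. Eif5, which triggers GTP hydrolysis on eIF2, and Eif5b, which joins the subunits, were not called (−0.08 ± 0.06 and −0.01 ± 0.04, adjusted p = 0.295 and 0.928). Eif4a3, a relative of the helicase that sits in the exon junction complex, had 43.6, 40.4 and 41.0 FPKM and then 39.6, 39.3 and 41.0 FPKM (adjusted p = 0.315).

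The elongation factors included the most abundant members. Eef1a1 (chromosome 9, 78478449 to 78489151, minus strand) had 3211, 3154 and 3136 FPKM in siScrambled and 3365, 3367 and 3393 FPKM in siPfkfb3, the sixth highest mean of all rows. All siPfkfb3 libraries lay above the controls, at 107% of the control mean (log2 change 0.09 ± 0.02 SE, adjusted p = 0.00945). The call ended in 4 settings, among them quantile normalization (adjusted p of 0.0563 to 0.720), and 41.7% of its 75-base stretches recur in other annotated genes, mostly processed pseudogenes. Subunits of eEF1B, which recharges eEF1A with GTP, went the other way or were not called. Eef1b2 fell from 146, 141 and 142 FPKM to 134, 127 and 132 FPKM, without overlap (−0.12 ± 0.03, adjusted p = 0.0155). Eef1g fell from 313 ± 4.32 to 291 ± 3.81 FPKM (−0.10 ± 0.03, adjusted p = 0.0146), with 56.5% of its stretches shared with other genes. Eef1d overlapped between groups at 62.8 to 87.9 FPKM (0.03 ± 0.13, adjusted p = 0.878). The calls of Eef1b2 and Eef1g ended in 3 and 4 of 15 settings. Eef1a2, the form of muscle and neurons, was at 0.705, 1.03 and 0.992 FPKM in siScrambled and 0.598, 0.634 and 0.628 FPKM in siPfkfb3, under the filter, so it was not tested by limma. Its ratio to Eef1a1 was 0.000287 ± 5.85e-05 in siScrambled and 0.000184 ± 5.52e-06 in siPfkfb3, without overlap (exact permutation p = 0.1, adjusted over 7 ratios p = 0.35). Eef1e1, a part of the multi-synthetase complex, was not called (0.06 ± 0.08, adjusted p = 0.576).

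Eef2, the translocase, had 789, 762 and 770 FPKM in siScrambled and 781, 803 and 798 FPKM in siPfkfb3, groups that overlap (0.04 ± 0.03, adjusted p = 0.314). Eef2k (chromosome 7, 120842831 to 120907450, plus strand), the calcium-dependent kinase that inactivates eEF2 by phosphorylation, rose from 8.10, 7.93 and 7.20 FPKM to 9.26, 9.69 and 9.90 FPKM. Its groups did not overlap, and the log2 change was 0.28 ± 0.06 (SE; adjusted p = 0.00540). The ratio of Eef2k to Eef2 was 0.0100 ± 0.000571 in siScrambled and 0.0121 ± 0.000278 in siPfkfb3, also without overlap (exact permutation p = 0.1, adjusted over 7 ratios p = 0.35). None of the 4 tested methyltransferases of the elongation factors was called, beside 36.3% of all tested genes. Eef1akmt1, the most abundant, had 16.6, 14.8 and 14.2 FPKM and then 14.4, 16.9 and 16.0 FPKM (adjusted p = 0.629). Eef1akmt2, Eef1akmt4 and Eef2kmt had adjusted p of 0.401 to 0.908. Without siScrambled replicate 1 Eef1akmt4 was called higher (limma, adjusted p = 0.0432). Eef1akmt3, under the filter and not tested, had 0.492, 0.697 and 0.832 FPKM in siScrambled and 0.973, 0.992 and 1.09 FPKM in siPfkfb3, without overlap.

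Summed over the 64 genes, translation factor transcripts made up 2.04% ± 0.00554 of all FPKM in siScrambled and 2.11% ± 0.0130 in siPfkfb3 (exact permutation p = 0.1). Without Eef1a1 the sum was 4103 ± 49.2 FPKM and 4030 ± 25.9 FPKM, 1.15% of all FPKM in both groups (exact permutation p = 0.3 for the share). The log2 ratio of the sum over all members was 0.03 as deposited and 0.05 under TPM or TMM scaling, and without Eef1a1 it was −0.03 as deposited and −0.01 under TMM scaling. The 83 cytosolic ribosomal protein genes, the other large family of the translation machinery, had 28277 summed FPKM in siScrambled and 25384 in siPfkfb3, or 7.94% ± 0.265 and 7.24% ± 0.246 of all FPKM (exact permutation p = 0.1). Of 80 tested ribosomal protein genes 40 fell and 1 rose, 51.2% called beside the background of 36.3%, with a median log2 change of −0.16 beside −0.04 for the translation factors. The difference between these families was not tested.

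Regulators and partners of these factors were read from lists of other genes of the pathway. Median log2 changes over these lists ran from −0.09 for the aminoacyl-tRNA synthetases to 0.07 for the eIF2 kinases, phosphatase subunits and partners, beside −0.02 over all tested genes. Among 12 genes of eIF2 phosphorylation, which are its kinases, phosphatase subunits and partners and the downstream transcription factor gene Atf4, 2 rose and 1 fell, 25.0% beside 36.3% of all tested genes. Eif2ak2, which encodes PKR, an interferon-induced kinase activated by double-stranded RNA, rose from 15.5 ± 0.875 to 27.3 ± 4.02 FPKM (log2 change 0.77 ± 0.10 SE, adjusted p = 0.000537). Ppp1cb, a catalytic subunit of protein phosphatase 1, rose from 27.6 ± 1.27 to 39.8 ± 0.797 FPKM (0.51 ± 0.04, adjusted p = 2.42e-05). Eif2ak1, the heme-regulated kinase, fell (−0.17 ± 0.05, adjusted p = 0.0367), a call that ended in 8 of 15 settings, and Eif2ak3 (PERK), Eif2ak4 (GCN2) and Atf4 were not called (adjusted p = 0.0993, 0.424 and 0.922). Of 15 tested genes of mTORC1 signalling 3 rose and 3 fell, 40.0% beside the background of 36.3%. Sesn2 (−0.43) and Ddit4 (−0.32) fell, as did Tsc2 (−0.17, lost in 8 of 15 settings), while its partner Tsc1 rose (0.31). Akt1s1 (PRAS40, 0.21) and Rragc (0.14) rose, and Mtor and Rptor were not called.

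Among 19 partners of the cap and poly(A) complexes 4 rose and 3 fell, 36.8% called, which is close to the background. The kinases of eIF4E went apart: Mknk1 rose from 7.46 ± 0.123 to 9.35 ± 0.697 FPKM (log2 change 0.29 ± 0.06 SE, adjusted p = 0.00561) and Mknk2 fell from 23.2 ± 1.11 to 19.9 ± 0.633 FPKM (−0.21 ± 0.05, adjusted p = 0.00791). Gigyf1 (0.26), Ctif (0.25) and Ncbp2 (0.24), a subunit of the nuclear cap-binding complex, rose and Cyfip1 (−0.23), which ties eIF4E to FMRP, fell, while the poly(A)-binding protein Pabpc1, at 279 ± 12.0 and 276 ± 3.04 FPKM, was not called (adjusted p = 0.774). Of 11 genes of termination, recycling and reinitiation 1 rose and 2 fell, 27.3% called beside 36.3% of all tested genes. Etf1, the release factor eRF1, rose from 28.1 ± 1.05 to 45.4 ± 2.11 FPKM (0.67 ± 0.05, adjusted p = 7.22e-06), a larger log2 change than that of any member. Denr, a reinitiation factor, fell from 21.6 ± 2.54 to 16.5 ± 0.780 FPKM (−0.37 ± 0.08, adjusted p = 0.00579), and the call of Gspt2 (adjusted p = 0.0494) ended in 11 of 14 settings.

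Of 22 genes of cytosolic aminoacyl-tRNA synthetases, which charge the tRNAs, 7 fell and none rose. That is 31.8%, beside 36.3% of all tested genes called in either direction and 20.5% called lower. The largest changes were those of Hars (−0.62 ± 0.06, adjusted p = 5.22e-05), Wars (−0.33 ± 0.05), Aars (−0.33 ± 0.03) and Nars (−0.27 ± 0.03). None of 9 genes that make hypusine on eIF5A or diphthamide on eEF2 was called by limma. Of 11 mitochondrial translation factors 18.2% were called: Mtif3 rose (0.23 ± 0.07, adjusted p = 0.0353) and Tufm, the mitochondrial counterpart of eEF1A, fell (−0.15 ± 0.04, adjusted p = 0.0192), calls that ended in 7 of 14 and 3 of 15 settings.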

How the data were processed

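RNA from 6 libraries, 3 siScrambled and 3 siPfkfb3, was sequenced, and the submitters' processing notes name HISAT2 and the build GRCm38/mm10. How reads were counted, with which strand setting and annotation, is not given in the sources used here. Gene levels are FPKM in 1 table of 24970 rows that the authors deposited. Of 22036 Ensembl IDs 22022 had a symbol in the gene name table. Depth is unknown, so no counting intervals are given.

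Rows whose mean reached 1 FPKM were tested on log2(FPKM + 1), which understates changes of low genes, with limma 3.58.1 in R 4.3.3 (trend, robust, two-sided, Benjamini-Hochberg over all 11240 genes, threshold 0.05). Fold changes are siPfkfb3 minus siScrambled, and each gene's adjusted p comes from it. Summed levels and ratios were tested with exact two-sided permutation tests in scipy 1.17.1. The fit was first tested on simulated data. Positions, exon overlaps and shared 75-base stretches are from GENCODE M21 (GRCm38): exons of 26 of the 64 members overlap another gene, 16 of them on the opposite strand, and with the strand setting unknown such reads cannot be told apart. The called members with an opposite-strand overlap are Eef1b2, Eef2k, Eif2a, Eif3j1, Eif4a2 and Eif6. More than 10% of the 75-base stretches recur in other genes for 13 members, and more than 50% for 4. The gene family and the lists were picked with earlier results of these data known. Values in every library are given for the 14 largest called changes without overlap, for 1 gene of each complex and for the genes of each ratio. In each list of other genes, the called genes with the largest changes, up to 4, are named, and further genes were added after their values were seen.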

Additional observations from a re-analysis of the deposited data

How the results depend on the processing

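The 22 member calls were recomputed under 15 alternatives. Direction held for each called member in each of them, and 10 (Eif4e3, Eif4a1, Eif4a2, Eif4b, Eif4g1, Eef2k, Eif2b1, Eif1, Eif3b and Eif3c) stayed called wherever they were tested. The count of members lower, 14, was 8 under quantile normalization, which then also gave 8 higher, and 7 in limma without trend and robust fit, with 7 higher. The other alternatives that keep all libraries gave 10 to 14 lower and 8 or 9 higher. Leaving out 1 library gave 6 to 12 lower and 6 to 9 higher, with 6 lower without siScrambled replicate 1, 9 without siScrambled replicate 3 and 8 without siPfkfb3 replicate 2; all genes called ranged from 3332 to 3701 there, beside 4079. The median log2 change of all genes was −0.02 as deposited and at most 0.02 closer to 0 under TPM, TMM or quantile scaling. With the replicate block 8 members were higher and 13 lower, and 3907 genes were called. Deviations of same-numbered libraries correlated at r = −0.11, 0.06 and 0.05 across genes, so no shared deviation was seen. That cannot show whether the numbers pair the cultures, which the labels do not say. Ratios within a library do not depend on TPM or TMM scaling, which multiply all its genes by a common factor. They were not computed under quantile normalization. Unknown depth limits the reading of members near 1 FPKM.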
